A study of Gallus gallus with 12 samples.

Results

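The collagen genes of the chick pineal gland were followed across 3 circadian times, in darkness and after a light pulse. A probe set, the group of oligonucleotides that reports a transcript on the array, was taken as a collagen probe set when its only annotated gene symbol was COL, a number, A and a number, and the brightest of a gene's probe sets over the 12 arrays stood for the gene. This gave 41 collagen genes, measured by 121 probe sets, among 13009 named genes on the array. Of the 41 genes, 33 were bright enough to be tested. Every bird was a male chick aged 8 days that had spent 7 days under a cycle with 12 h of light per day and then 1 day in constant darkness, so the dark controls and the light-treated birds share this history. Light was given for 1 h from circadian time (CT) 6, in the subjective day, from CT14, early in the subjective night, or from CT22, late in it, and controls stayed in darkness at the same times. Each of the 6 groups had 2 arrays, each from a pool of 6 whole glands and 9 µg of total RNA. Because the pools hold whole glands with whatever capsule, vessels and membranes came with them, fewer cells of a type and less RNA per cell cannot be told apart.

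Collagens are secreted or membrane-bound proteins whose chains wind into a triple helix. Fibrillar collagens form the tensile fibres of connective tissue, type IV collagens form the sheet of basement membranes around vessels and parenchyma, type VI collagens form beaded filaments around cells, and FACIT collagens sit on the surface of fibrils. The chick pineal is itself photoreceptive and holds a circadian clock, and its follicles of pinealocytes lie in a connective tissue stroma that is continuous with the meninges and produced mainly by fibroblasts and vessel-associated cells.

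The probe sets were compared as log2 normalized intensity, on which a difference of 1 is a doubling. Tests were made with limma over all 23063 probe sets that passed the brightness filter, with Benjamini-Hochberg adjustment over all of them and a threshold of 0.05, and every p below is adjusted in this way unless said otherwise. Because an oligonucleotide's brightness depends on its sequence, levels were compared between groups for one probe set, and not between genes. Ranges and percentiles of brightness given below place probe sets on the array and do not rank transcripts by amount. Array medians before normalization lay between 20.1 and 28.9 intensity units. Replicate arrays correlated at r of 0.964 to 0.975 across probe sets. The ratio of the actin 3' to 5' control signals, a measure of RNA integrity, was 4.67 and 3.95 on the CT14 dark arrays and 3.28 and 3.09 on the CT14 light arrays, the highest and the lowest pair means of the series, and its part in the CT14 results was tested only by adding it as a covariate.

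Fibroblast and meningeal markers other than collagens were read beside the label of stromal and meningeal genes. Their brightness in pools of whole glands cannot show which cells held the collagen RNA. Of 20 listed markers 16 had a probe set, and all 16 passed the filter. Their means over the 12 arrays ran from 4.01 for TBX18 and 4.47 for TWIST2, both transcription factors, to 12.66 for PTGDS and 12.67 for MGP, a secreted enzyme and a matrix protein. DPT, SLC6A13, CRABP2 and OSR1 had no matched probe set. Cartilage and bone also make collagen. Of 12 listed cartilage markers 7 passed the filter, with means from 4.49 for CSPG5 to 7.90 for SOX9 and a summed linear intensity of 516 to 655 units, while MATN1, EPYC and SNORC were below it. Of 12 listed bone markers 4 passed, with a sum of 105 to 172 units. Sums of different probe sets were read only between arrays of the same list.

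The type I genes were the collagen genes that rose after light. COL1A1 and COL1A2 encode the chains of type I collagen, the main fibrillar collagen of meninges and skin. COL1A1 measured 8.70 and 8.47 on the CT14 dark arrays against 9.36 and 9.48 on the CT14 light arrays. At CT22 it measured 9.02 and 9.16 in darkness against 9.41 and 9.54 after light. At CT6 the dark arrays were the higher, at 9.41 and 9.46 against 9.26 and 9.12. The light and dark arrays thus did not overlap at any of the 3 times, but lay in the opposite order at CT6. Light raised COL1A1 by 0.84 ± 0.10 (SE, n = 2 and 2) on the log2 scale at CT14, a 1.79-fold change with an adjusted p of 0.000339, and by 0.38 ± 0.10 at CT22, a 1.31-fold change with an adjusted p of 0.0467. At CT6 the difference was -0.25 ± 0.10 and did not pass (adjusted p = 0.412). The CT22 call did not hold in 15 of 24 alternatives, such as leaving out any single CT6, CT14 light or CT22 array, where adjusted p reached up to 0.292. The CT14 call was kept in all 24.

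In CT14 darkness COL1A1 was at its lowest of the 6 groups. In darkness the gene fell from CT6 to CT14 by 0.85 ± 0.10, a 1.81-fold lower level (adjusted p = 0.000346), and rose from CT14 to CT22 by 0.51 ± 0.10 (adjusted p = 0.00685). The CT14 dark arrays enter both this dark comparison and the CT14 light comparison, so the values are not independent of each other. The CT14 light arrays, at 9.36 and 9.48, lay beside the CT6 dark arrays, at 9.41 and 9.46, and the CT22 light arrays, at 9.41 and 9.54. In the deposited intensities, before normalization, the CT14 dark arrays read 355 and 339 units and all other arrays between 538 and 802. The light effect at CT14 exceeded that at CT6 by 1.08 ± 0.14, which passed as a test of the difference (adjusted p = 0.00896). The rise from CT14 to CT22 in darkness was lost without CT14 dark replicate 2, without CT22 dark replicate 2 and without the variance trend.

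COL1A2 kept a smaller range than COL1A1. It measured 9.65 and 9.76 in CT6 darkness against 9.50 and 9.46 after light, 9.20 and 9.17 in CT14 darkness against 9.43 and 9.59 after light, and 9.41 and 9.43 in CT22 darkness against 9.88 and 9.76 after light. The CT14 dark arrays were again the lowest of the 12, and the CT22 light arrays the highest. Light raised it at CT22 by 0.40 ± 0.08, or 1.32-fold (adjusted p = 0.0148), while the difference at CT14 was 0.33 ± 0.08 (adjusted p = 0.0601) and that at CT6 was -0.22 ± 0.08 (adjusted p = 0.337). The CT22 effect exceeded the CT6 effect by 0.62 ± 0.11 (adjusted p = 0.0399), which held in 7 of 23 alternatives and not without any single CT22 array, either CT6 light or CT14 dark array, CT6 dark replicate 2 or CT14 light replicate 2. In darkness COL1A2 fell from CT6 to CT14 by 0.52 ± 0.08 (adjusted p = 0.00294). This fall was kept in 22 of 24 alternatives, but turned to 0.19 with the mean of its probe sets. The CT22 light call failed in 6 of 24 alternatives, including the removal of CT22 dark replicate 1, CT22 dark replicate 2 or CT22 light replicate 1. That call and the CT22 excess over CT6 were also lost in the values as deposited and with the mean of its probe sets.

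**Figure D1:**
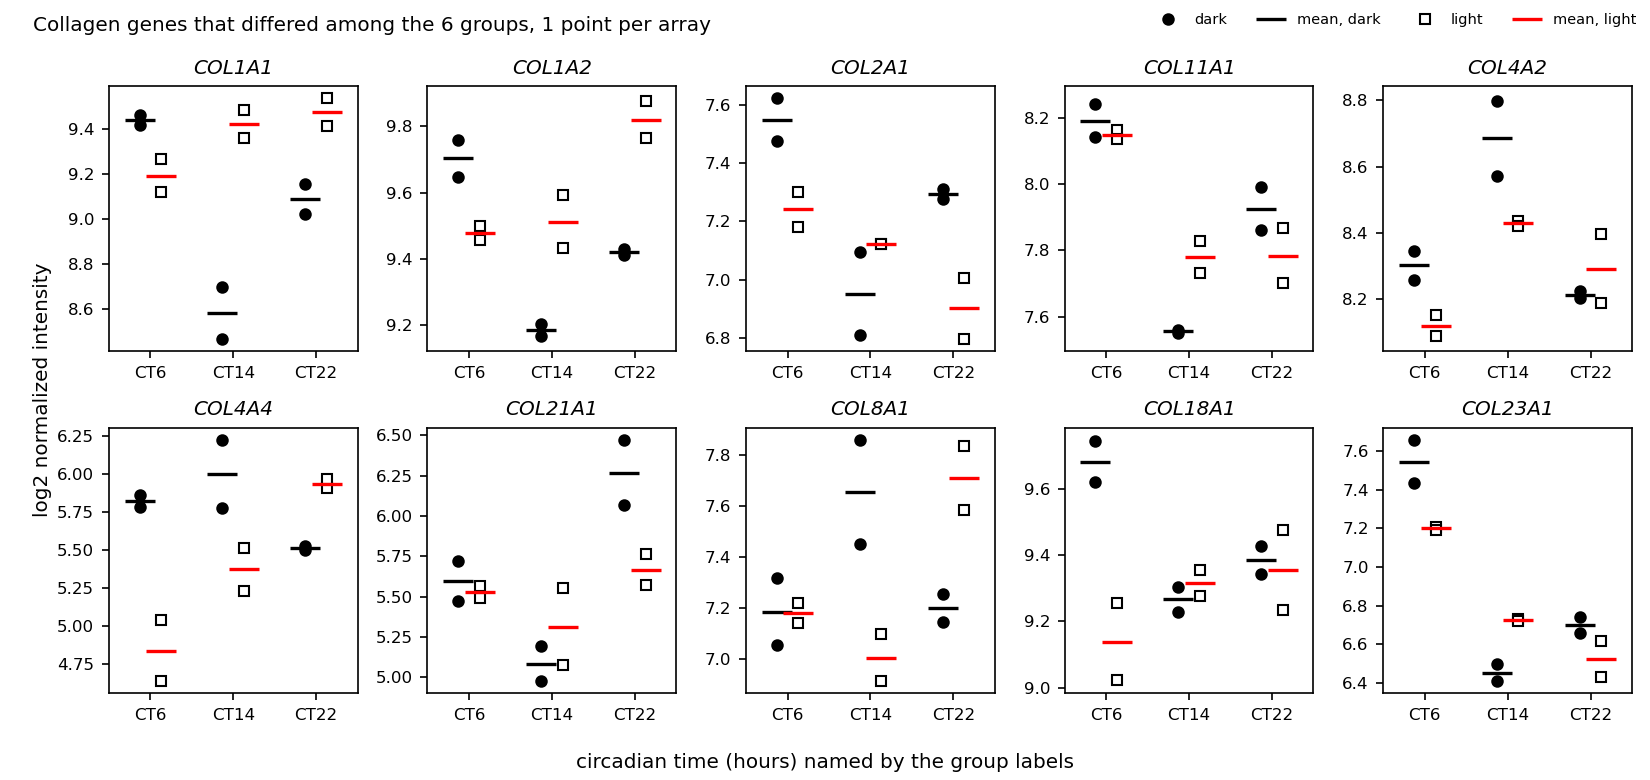
Log2 normalized intensity (y axis) by circadian time in hours (x axis) for the 10 collagen genes that differed among the 6 groups; circles are dark arrays, open squares light arrays, black and red bars the means of 2 arrays, and each panel has its own y range. COL1A1 in CT14 darkness (8.70 and 8.47) lies below its other arrays, and COL23A1 lies highest in CT6 darkness (7.43 and 7.66).

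No other fibrillar gene was called for light at any single time. COL3A1, the type III chain found with type I in distensible tissue, measured 11.75 and 11.74 against 11.68 and 11.76 at CT6, 11.72 and 11.59 against 11.72 and 11.76 at CT14, and 11.69 and 11.76 against 11.81 and 11.70 at CT22, dark before light. Its light and dark arrays overlapped at every time, and its span over the 12 arrays, 0.22, was the smallest of the 33 tested genes. The 95% intervals of its light effect were -0.16 to 0.11 at CT6, -0.05 to 0.22 at CT14 and -0.10 to 0.17 at CT22, which do not hold the 0.84 measured for COL1A1 at CT14. COL3A1 is near the top of the array's brightness range, at the 99.6th percentile of probe sets, and whether it was saturated was not tested. COL3A1 had 5 tested probe sets. A dimmer one gave a light effect of 0.34 at CT14 (adjusted p = 0.133) and a dark difference from CT6 to CT14 of -0.39 (adjusted p = 0.0521). None of the 5 passed the test of any difference among the 6 groups.

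COL2A1 and COL11A1 fell in darkness from CT6 to CT14 like the type I genes. COL2A1 encodes the chain of type II collagen, best known from cartilage and the vitreous, and COL11A1 a chain of type XI, which sets fibril diameter. COL2A1 measured 7.47 and 7.62 at CT6, 6.81 and 7.09 at CT14, and 7.31 and 7.28 at CT22 in darkness, and 7.18 and 7.30, 7.12 and 7.12, and 7.01 and 6.80 after light. COL11A1 measured 8.14 and 8.24, 7.56 and 7.55, and 7.99 and 7.86 in darkness, and 8.16 and 8.13, 7.83 and 7.73, and 7.87 and 7.70 after light. For both genes each CT14 dark array lay below each CT6 dark array. The fall was 0.60 ± 0.13 for COL2A1 (adjusted p = 0.0239) and 0.64 ± 0.10 for COL11A1 (adjusted p = 0.00389), and COL11A1 rose by 0.37 ± 0.10 from CT14 to CT22 (adjusted p = 0.0462). The COL2A1 call failed in 8 of 24 alternatives, including the actin ratio as covariate and the removal of CT6 dark replicate 1, CT6 dark replicate 2 or CT14 dark replicate 1. The COL11A1 fall failed in 2 of 24, being -0.24 (adjusted p = 0.344) with the mean of its probe sets, and its later rise failed in 16 of 24, including that mean, the actin covariate and the removal of any array other than the CT22 light arrays. Neither gene passed for light at any time, the differences being -0.31, 0.17 and -0.39 for COL2A1 and -0.04, 0.22 and -0.14 for COL11A1 at CT6, CT14 and CT22.

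The 2 type V genes, whose chains nucleate type I fibrils, differed in opposite directions without passing any test. In darkness from CT6 to CT14 the difference was -0.39 for COL5A1 (adjusted p = 0.087) and 0.44 for COL5A2 (adjusted p = 0.0877). COL5A2 and COL3A1 are neighbouring genes in the chicken RefSeq annotation (assembly GRCg7b), with no protein-coding gene between them. COL24A1 and COL27A1, the remaining fibrillar genes, passed no test. COL27A1 had the largest light difference of the 33 genes at CT22, with 4.46 and 4.79 in darkness against 3.43 and 3.01 after light, a difference of -1.40 ± 0.55 (adjusted p = 0.208). Its replicates also lay apart by as much as 1.93, in CT14 darkness. A dimmer COL24A1 probe set passed the test of any difference among the 6 groups (adjusted p = 0.0319), which the brighter one did not.

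COL18A1 was the collagen gene that fell after light at CT6. It encodes the chain of type XVIII collagen, a multiplexin of basement membranes that carries heparan sulfate and releases the fragment endostatin. It measured 9.62 and 9.74 in CT6 darkness against 9.02 and 9.26 after light, 9.30 and 9.23 against 9.36 and 9.28 at CT14, and 9.43 and 9.34 against 9.23 and 9.48 at CT22. The CT6 dark arrays were the highest of the 12. The light effect at CT6 was -0.54 ± 0.10, a 1.46-fold lower level with a 95% interval of -0.76 to -0.33 (adjusted p = 0.0496), and those at CT14 and CT22 were 0.05 and -0.03. In darkness it fell from CT6 to CT14 by 0.42 ± 0.10 (adjusted p = 0.0386). Both calls use the CT6 dark arrays. The light call failed in 18 of 24 alternatives, including the removal of any single CT6 or CT14 array or either CT22 dark array, with adjusted p of 0.0341 to 0.330, and the dark call failed in 14 of 24, including the actin covariate and the removal of any CT14 array or of either CT6 or CT22 dark array.

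No type IV gene was called from CT6 to CT14 in darkness. COL4A1 and COL4A2, adjacent genes that encode the chains of the common basement membrane network, measured in darkness 6.77 and 6.95, 7.18 and 7.12, and 6.98 and 6.96 for COL4A1 at CT6, CT14 and CT22. The COL4A1 light arrays read 7.21 and 7.06, 7.12 and 7.14, and 7.00 and 7.12 at these times. COL4A2 read 8.26 and 8.35, 8.80 and 8.57, and 8.20 and 8.22 in darkness, and 8.15 and 8.09, 8.44 and 8.42, and 8.19 and 8.40 after light. Both genes thus had higher dark levels at CT14 than at CT6, with differences of 0.29 (adjusted p = 0.224) and 0.38 (adjusted p = 0.0585). COL4A2 fell from CT14 to CT22 by 0.47 ± 0.10 (adjusted p = 0.0145), a call that failed in 6 of 24 alternatives (differences of -0.58 to -0.12, adjusted p up to 0.516), including the mean of its probe sets, the values as deposited and the removal of CT14 dark replicate 1, CT22 dark replicate 1 or CT22 dark replicate 2. No type IV gene passed for light.

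COL4A4, a chain of the network known from kidney glomeruli, had the largest light difference at CT6 among the collagen genes without passing. It measured 5.78 and 5.86 in CT6 darkness against 5.04 and 4.64 after light, 5.78 and 6.22 against 5.23 and 5.51 at CT14, and 5.50 and 5.53 against 5.91 and 5.97 at CT22. Light arrays were lower at CT6 and CT14 and higher at CT22, with no overlap at any time. The differences were -0.98 ± 0.21 (adjusted p = 0.0897), -0.63 (adjusted p = 0.193) and 0.42 (adjusted p = 0.348), and the gene passed only the test of any difference among the 6 groups (adjusted p = 0.0172). COL4A5 and COL4A6, a further adjacent pair, passed no test.

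Type VI genes were among the least variable. COL6A1 measured 8.82 and 8.96 against 8.75 and 8.69 at CT6, 8.92 and 8.65 against 8.47 and 8.80 at CT14, and 8.69 and 8.68 against 8.57 and 8.76 at CT22, dark before light. COL6A3 measured 8.41 and 8.35 against 8.38 and 8.39, 8.04 and 8.29 against 7.97 and 8.24, and 8.54 and 8.33 against 8.39 and 8.49. Light and dark arrays overlapped at CT14 and CT22 for both genes. The light differences at the 3 times were -0.17, -0.15 and -0.01 for COL6A1, -0.05, -0.07 and -0.04 for COL6A2, and 0.01, -0.06 and 0.00 for COL6A3, and no type VI gene passed any test.

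Among the remaining classes, COL8A1, COL21A1 and COL23A1 passed at least 1 test. COL8A1 encodes a short-chain collagen of vessel walls and of the corneal basement membrane. Its arrays read 7.05 and 7.31 against 7.22 and 7.14 at CT6, 7.45 and 7.86 against 7.10 and 6.91 at CT14, and 7.25 and 7.15 against 7.58 and 7.84 at CT22, dark before light. Light arrays lay below dark arrays at CT14 and above them at CT22. The single differences were -0.65 ± 0.15 (adjusted p = 0.0523) and 0.51 ± 0.15 (adjusted p = 0.0924), and their difference, 1.16 ± 0.22, passed (adjusted p = 0.0159). That call failed in 9 of 23 alternatives, including the mean of its probe sets, the actin covariate and the removal of CT14 light replicate 2, CT22 dark replicate 1, CT22 dark replicate 2 or CT22 light replicate 2.

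COL23A1, a transmembrane collagen, had the largest fall in darkness among the collagen genes called. Its dark arrays read 7.43 and 7.66 at CT6, 6.50 and 6.41 at CT14, and 6.66 and 6.74 at CT22, and its light arrays 7.21 and 7.19, 6.73 and 6.72, and 6.62 and 6.43. Both CT6 groups lay above all CT14 and CT22 arrays. In darkness it fell by 1.09 ± 0.13 from CT6 to CT14, a 2.13-fold lower level (adjusted p = 0.000496), and was lower at CT22 than at CT6 by 1.80-fold (a difference of -0.85 ± 0.13, adjusted p = 0.00568). The first call was kept in 24 of 24 alternatives and the second in 20, being lost, among others, without CT6 dark replicate 2 and without CT22 dark replicate 1.

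COL21A1 encodes a FACIT collagen known from vessel walls. Its dark arrays read 5.72 and 5.47, 4.98 and 5.19, and 6.07 and 6.47 at CT6, CT14 and CT22, and its light arrays 5.57 and 5.49, 5.07 and 5.55, and 5.77 and 5.57. The CT22 dark arrays were the highest of the 12. It rose in darkness from CT14 to CT22 by 1.18 ± 0.22, or 2.27-fold (adjusted p = 0.00624), a call lost without CT14 dark replicate 1, without CT22 dark replicate 2 and with the mean of its probe sets. Its light difference at CT22 was -0.60 (adjusted p = 0.176). The other 7 tested FACIT genes, both other tested transmembrane genes, COL8A2, COL26A1 and COL28A1 passed no test.

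**Figure D2:**
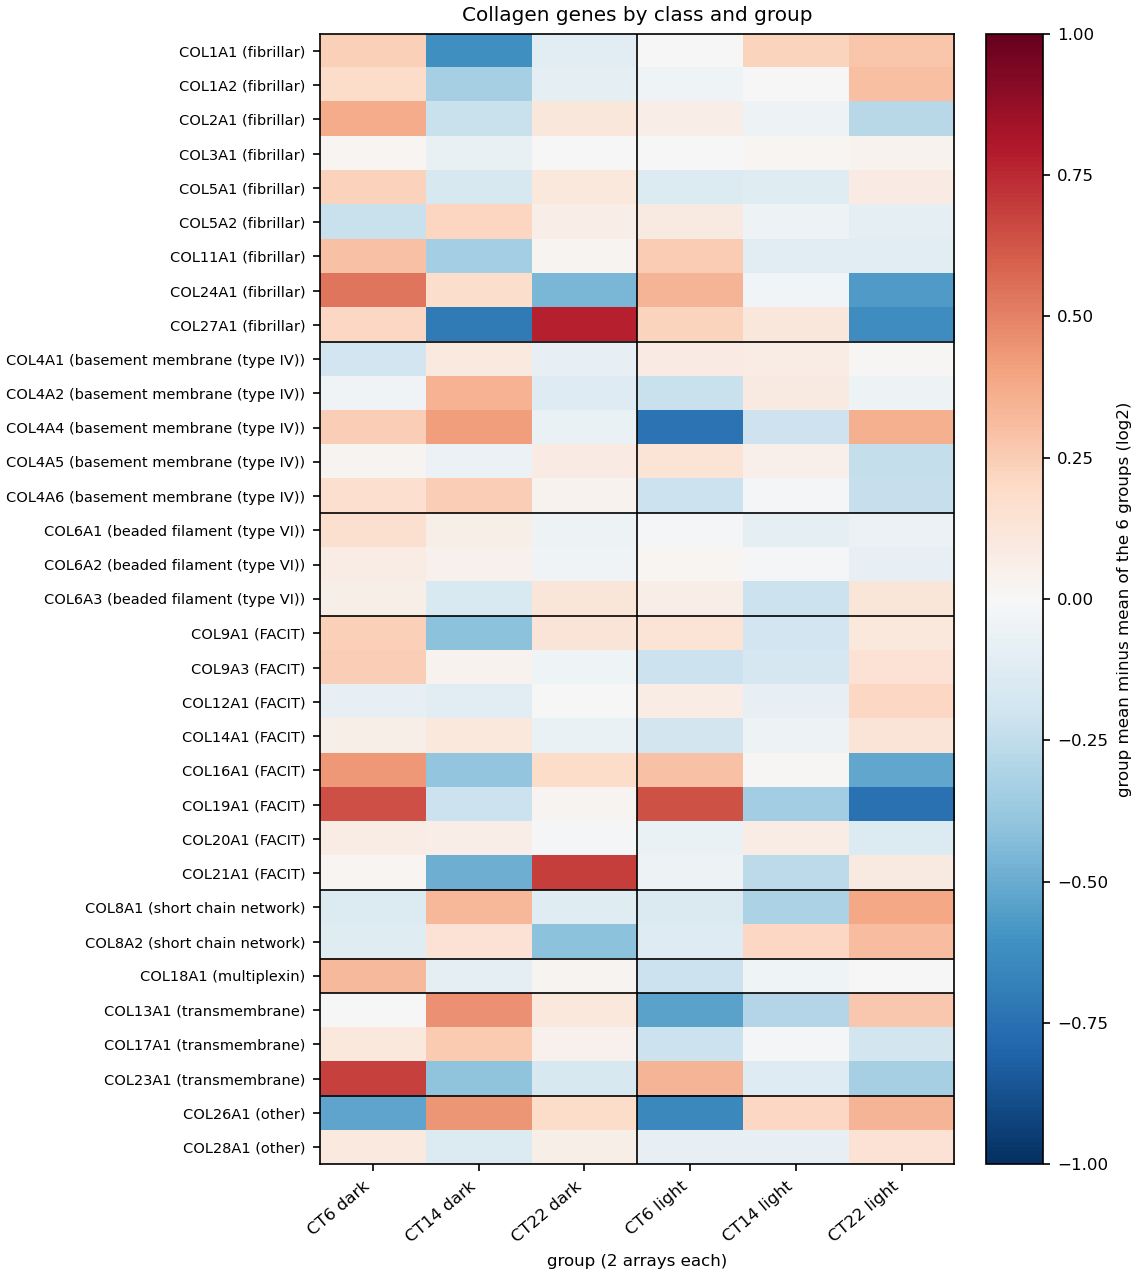
Group mean minus the mean of the 6 groups on the log2 scale (colour) for the 33 tested collagen genes (rows, by class) in the 6 groups (columns, 2 arrays each). COL1A1, COL1A2 and COL11A1 are below their mean in CT14 darkness while COL4A2 is above it, and the COL3A1 and COL6A2 rows are the palest.

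Counted over the 33 tested genes, the light pulse changed few collagen genes at each time. At CT6 only COL18A1 was called, and it was lower; over all tested probe sets 0.221% were called at CT6, 0.178% higher and 0.0434% lower. At CT14 only COL1A1 was called, against 1.67% of all probe sets, 1.14% higher and 0.529% lower. At CT22 COL1A1 and COL1A2 were called, both higher, against 3.64% of all probe sets, 1.73% higher and 1.92% lower. Averaged over the 3 times COL1A1 alone was called, at 0.33 ± 0.06 (adjusted p = 0.00516), against 3% of all probe sets, 1.78% higher and 1.22% lower. With 33 genes, 1 call is 3.03%, so counts this small do not set the collagen genes apart from the array.

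At CT6 most collagen genes had a light difference below 0, though only COL18A1 passed. The light difference was below 0 in 27 of 33 genes, with a median of -0.14 and a range of -0.98 to 0.31, while 49.8% of all tested probe sets were below 0 and their median was 0.00. The median stayed below 0 in all 24 alternatives, between -0.25 and -0.07. The variance models, the replicate block and the removal of CT14 or CT22 arrays cannot change this median, so fewer than 24 test it. Light arrays lay wholly below dark arrays in 14 genes and wholly above in 4, against 20% and 20.9% of all probe sets. The CT6 dark arrays, which every CT6 value shares, make these genes' differences dependent on each other.

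At CT14 and CT22 the genes were more evenly split, with medians of 0.00 and -0.02 and with 16 and 18 of 33 genes below 0. The CT14 median lay below 0 in 4 of 24 alternatives and the CT22 median in 21 of 24. Both counts include alternatives that cannot change the median. At CT14 light and dark arrays did not overlap for 5 genes higher and 8 lower, against 22.1% and 21.5% of probe sets, and at CT22 for 8 higher and 9 lower, against 23.2% and 24.7%. The 95% interval of the light effect lay within 0.5 of 0 on either side for 12, 15 and 13 genes at CT6, CT14 and CT22. For the rest, with 2 arrays per group, the interval reached a change of 0.5 or more in size. The genes called for light are among that rest.

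**Figure D3:**
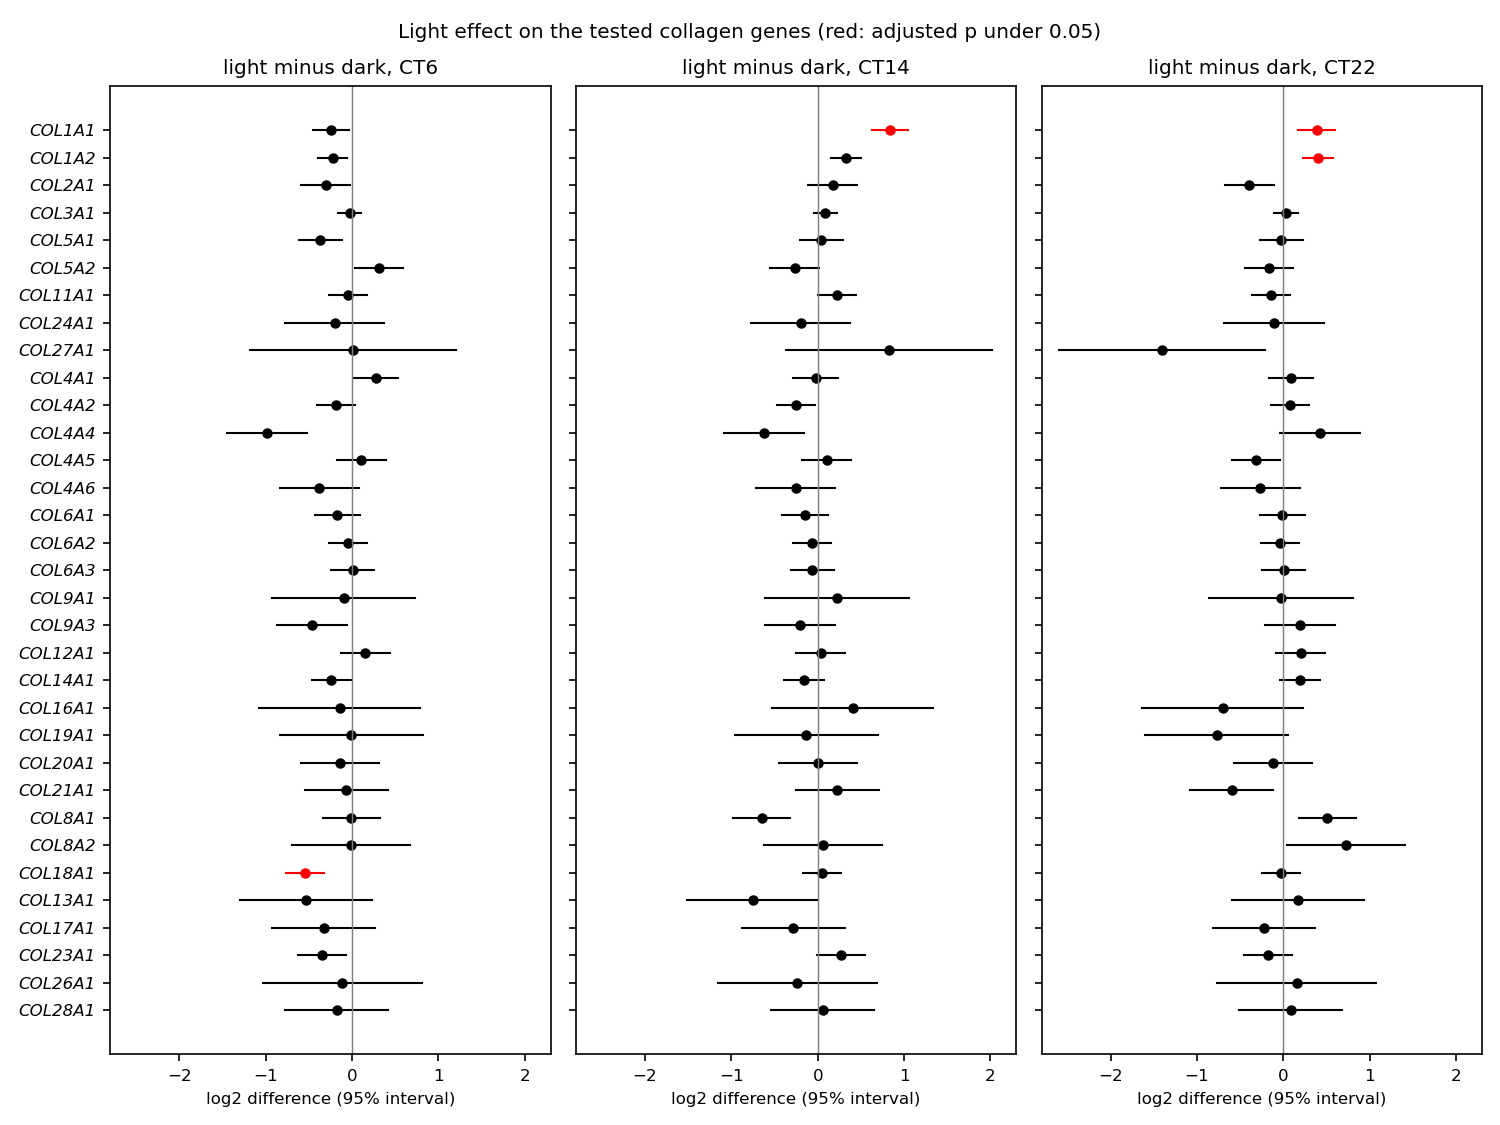
Light minus dark on the log2 scale (x axis) with 95% intervals for the 33 tested collagen genes (y axis) at CT6, CT14 and CT22, red where the adjusted p was under 0.05. The red points are COL18A1 at CT6 (-0.54), COL1A1 at CT14 (0.84), and COL1A1 (0.38) and COL1A2 (0.40) at CT22, and most points at CT6 lie left of 0.

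The light effect depended on the time for 3 collagen genes, COL1A1 (adjusted p = 0.00594), COL1A2 (adjusted p = 0.0237) and COL8A1 (adjusted p = 0.0407), against 1.35% of all probe sets in the same test. Of the pairwise differences, COL1A1 passed between CT14 and CT6, where 0.113% of probe sets were called (0.0954% higher, 0.0173% lower). COL1A2 passed between CT22 and CT6, where 0.247% were called (0.165% higher, 0.0824% lower). COL8A1 passed between CT22 and CT14, where 2.26% were called (1.21% higher, 1.05% lower).

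Between dark groups the calls were mostly of CT14 against the other times. From CT6 to CT14, 6 of 33 genes fell (COL1A1, COL1A2, COL2A1, COL11A1, COL18A1 and COL23A1) and 0 rose, while 3.46% of all probe sets were called, 2.12% lower and 1.34% higher. The collagen genes stand by their brightest probe sets, with a median standard error of 0.132 against 0.203 over all tested probe sets. The 2 shares are thus not matched for precision. The fibrillar genes carried 4 of the 6 falls, and 8 of the 9 tested fibrillar genes had a difference below 0, with a median of -0.52. This count rests on the choice of the brightest probe set. With the mean of a gene's probe sets COL1A2 turned to 0.19, and COL2A1 and COL11A1 were no longer called. Over the 33 genes the median was -0.10 with 22 below 0. It lay below 0 in all 24 alternatives, between -0.21 and -0.04. The variance models, the replicate block and the removal of arrays of other groups cannot change it. Type IV genes had 1 of 5 below 0 and a median of 0.17. CT14 dark arrays lay wholly below CT6 dark arrays in 14 genes and wholly above in 7, against 22.9% and 23% of probe sets.

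From CT6 to CT22 in darkness only COL23A1 was called, and it was lower, against 1.11% of probe sets, 0.503% lower and 0.603% higher. CT22 dark arrays lay wholly below CT6 dark arrays in 14 genes and wholly above in 5, against 20.5% and 22% of probe sets. From CT14 to CT22, COL1A1, COL11A1 and COL21A1 rose and COL4A2 fell, against 6.54% of probe sets, 3.27% in each direction. These dark groups did not overlap for 13 genes higher and 12 lower at CT22, against 25.6% and 23.6% of probe sets. The median over the 33 genes was -0.11 from CT6 to CT22 and 0.08 from CT14 to CT22. Both changed sign with the scaling, the first to 0.18 in the values as deposited, where all probe sets had a median of 0.28, and the second to -0.02 with arrays centred on their medians. The second was also -0.08 with the filter at the 60th percentile, -0.02 with the actin covariate and -0.02 without CT22 dark replicate 1. The joint test among the 3 dark groups called 7 collagen genes against 6.43% of probe sets, and COL18A1 was not among them. The test of any difference among the 6 groups called 10 against 9.4%.

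A gene's probe sets did not always agree, and COL1A1, COL18A1 and COL23A1 have only 1 tested probe set. For COL1A2, 5 probe sets were tested. The next brightest gave -0.20, 0.16 and 0.27 for light at CT6, CT14 and CT22 and -0.29 for CT14 against CT6 in darkness (adjusted p = 0.0938), each with the sign of the brightest and smaller in size. The 3 dimmer ones gave 0.05, 1.32 and 0.39 in darkness, with standard errors of up to 0.65, so the mean over all 5 turned the dark difference to 0.19. For the 3 genes called lower from CT6 to CT14 that had further tested probe sets, 4 of 8 further probe sets had the same sign and 0 were called. COL14A1, a FACIT collagen of skin and tendon, showed the reverse case, its brightest probe set giving 0.05 in darkness and a dimmer one -0.83 ± 0.17 (adjusted p = 0.0173). A dimmer probe set of COL19A1 gave -2.19 ± 0.48 for light at CT22 (adjusted p = 0.0230), while the brightest gave -0.77 and did not pass. COL14A1 and COL19A1 were singled out here after their values were seen.

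**Figure D4:**
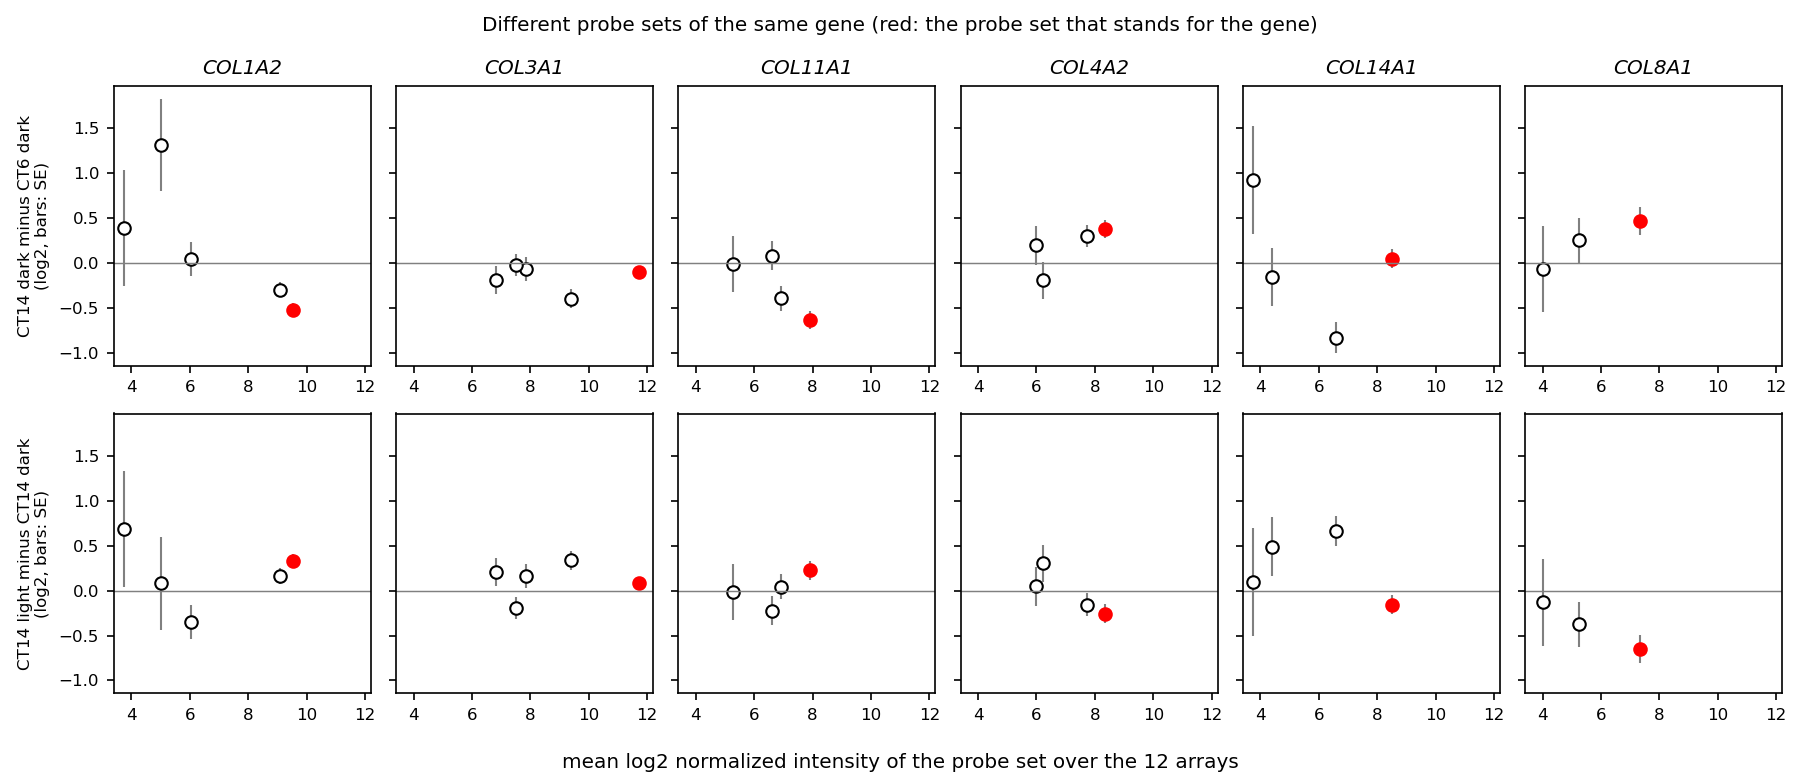
Log2 difference with its standard error (y axis) against mean log2 intensity (x axis) for every tested probe set of 6 collagen genes, in darkness from CT6 to CT14 and for light at CT14; red marks the probe set that stood for the gene. The 2 bright COL1A2 probe sets both lie below 0 in darkness (-0.52 and -0.29), the dimmer ones scatter with wider errors, and the genes were chosen after their values were seen.

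The 8 genes below the filter were COL15A1, COL4A3, COL22A1, COL25A1, COL7A1, COL6A6, COL9A2 and COL10A1. COL15A1 stood just outside it, at the 39.0th percentile of mean brightness, and COL27A1 just inside, at the 41.4th. COL9A2 and COL10A1, known from cartilage, stood lowest, at the 7.36th and 6.50th percentiles. At these intensities the values say only that the probe sets were dim.

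Among genes that fold and modify procollagen in the endoplasmic reticulum, SERPINH1 and P4HA2 rose after light. Of 21 tested genes in a list of 25, none was called at CT6, where 0.221% of all probe sets were. SERPINH1 alone rose at CT14, against 1.67% of probe sets called, and SERPINH1 and P4HA2 rose at CT22, against 3.64%. At CT22 5 of 21 genes were below 0, with a median of 0.23, against 51.1% and -0.01 over all tested probe sets. SERPINH1 encodes HSP47, the collagen-specific chaperone, which is also a heat shock protein. It measured 9.38 and 9.65 against 9.60 and 9.55 at CT6, 9.003 and 9.13 against 9.69 and 9.69 at CT14, and 9.49 and 9.60 against 10.51 and 10.76 at CT22, dark before light. The CT14 and CT22 groups did not overlap, and the CT6 groups did. Its light effect was 0.63 ± 0.10 at CT14, or 1.54-fold (adjusted p = 0.00547), and 1.10 ± 0.10 at CT22, or 2.14-fold (adjusted p = 5.24e-05). In darkness it fell from CT6 to CT14 by 0.45 ± 0.10 (adjusted p = 0.0281) and rose to CT22 by 0.47 (adjusted p = 0.0134). That rise was not run under the alternatives. The CT14 call was lost without CT14 dark replicate 1, without CT14 light replicate 2, with the actin ratio as covariate and without the variance trend, while the CT22 call was kept in all 24 alternatives. The dark fall failed in 7 of 24, including the removal of CT6 dark replicate 2 or CT14 dark replicate 1.

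P4HA2 encodes a catalytic subunit of prolyl 4-hydroxylase, which stabilises the triple helix. It measured 5.75 and 6.08 against 6.34 and 6.33 at CT6, 6.19 and 5.96 against 6.27 and 6.42 at CT14, and 6.42 and 6.03 against 7.91 and 8.10 at CT22. The CT22 light arrays stood well above all others. The rise was 1.78 ± 0.17, or 3.43-fold (adjusted p = 7.98e-05), and was called in 24 of 24 alternatives. It exceeded the CT6 effect by 1.36 (adjusted p = 0.0417), a call that failed in 13 of 23. CRTAP, a partner of prolyl 3-hydroxylation, rose in darkness from CT6 to CT14 by 0.42 ± 0.09 (adjusted p = 0.0227), opposite in direction to SERPINH1 and the type I genes, and was no longer called with the actin covariate, without CT6 dark replicate 1 or without either CT14 dark array. CRTAP and the other genes of these lists described for darkness were chosen after their values were seen.

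Lists of later steps held few calls, where 3.64% of all probe sets were called for light at CT22. None of 11 tested genes of procollagen processing and crosslinking was called for light at any single time, and the averaged light effect on SPARC, a collagen-binding matricellular protein, was 0.14 ± 0.03 (adjusted p = 0.0407), a call that failed in 15 of 23 alternatives, including the removal of either CT6 dark array or any CT14 array. None of 9 tested genes of a collagen breakdown list was called for light or in darkness. Over all probe sets 0.221% were called for light at CT6 and 1.67% at CT14. In darkness 3.46% were called from CT6 to CT14, 1.11% from CT6 to CT22 and 6.54% from CT14 to CT22. With so few genes, a lack of calls does not set the list apart from the array. The breakdown list holds proteases such as MMP2 and also inhibitors of proteases, TIMP2, TIMP3, TIMP4 and RECK. Of 7 tested collagen receptors, ITGA2, the integrin subunit that binds type I collagen, fell after light at CT22 by 0.51 ± 0.11 (adjusted p = 0.0222), which did not pass without any single CT22 array.

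Noncollagen matrix genes were called at CT22 in both directions, where 3.64% of all probe sets were called. Of 18 tested stromal genes, FBLN2 (fibulin 2) rose by 0.51 ± 0.12 (adjusted p = 0.0369) and VCAN (versican) fell by 0.46 ± 0.10 (adjusted p = 0.0276), and neither passed when any single CT22 array was left out. Of 14 tested basement membrane genes, the laminin chains LAMA4 and LAMA5 fell by 0.53 ± 0.09 (adjusted p = 0.0048) and 0.73 ± 0.11 (adjusted p = 0.00346), at the time at which the type I genes rose. Both laminin calls were lost without the variance trend, and that of LAMA4 also with the mean of its probe sets. Averaged over the 3 times, the light effect was -0.34 for VCAN (adjusted p = 0.00627), kept in 21 of 23 alternatives. It was -0.25 for LAMA4 (adjusted p = 0.0149), kept in 16, and -0.36 for LAMA5 (adjusted p = 0.00718), kept in 21. Over all probe sets 3% were called for the averaged effect. No gene of these lists was called for light at CT6 or CT14, where 0.221% and 1.67% of all probe sets were called. At shares this small, a lack of calls in lists of this size does not set CT22 apart.

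In darkness FN1, which encodes fibronectin, on which collagen fibrils assemble, had the largest fall called in these lists from CT6 to CT14. It measured 12.07 and 11.83 at CT6, 10.68 and 10.94 at CT14, and 10.84 and 10.89 at CT22 in darkness, and 11.62 and 12.00, 11.06 and 10.86, and 10.89 and 11.02 after light. Every CT6 array lay above every later array. It fell by 1.14 ± 0.12 (adjusted p = 0.000237), or 2.21-fold, a call kept in 24 of 24 alternatives, and its light and dark arrays overlapped at CT14. LAMA5, AGRN (agrin) and SMOC2, all of basement membranes, fell over the same interval by 0.58, 0.62 and 0.65 (adjusted p = 0.0145, 0.00409 and 0.00212), LAMA5 no longer passing without either CT6 dark array or CT14 dark replicate 1, and SMOC2 being -0.32 (adjusted p = 0.652) with the mean of its probe sets. FN1 and these genes come from the matrix lists whose tested sizes are given above. Over all probe sets 3.46% were called from CT6 to CT14 in darkness, 2.12% lower and 1.34% higher.

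TGF beta is a main inducer of collagen transcription. Of 16 tested genes of its pathway, none was called for light at CT6 or CT14, where 0.221% and 1.67% of all probe sets were, and 3 at CT22, where 3.64% were. At CT22 its receptor TGFBR1 and its target CCN2 rose by 0.45 ± 0.11 (adjusted p = 0.0359) and 0.62 ± 0.11 (adjusted p = 0.00997), and SMAD2, a signal transducer, fell by 0.37 ± 0.07 (adjusted p = 0.0103). Leaving out single arrays ended the TGFBR1 call for any CT22 or CT14 light array, the SMAD2 call for either CT22 dark array or CT22 light replicate 2, and the CCN2 call for CT22 dark replicate 1 or CT22 light replicate 2. CCN2 measured 9.55 and 9.68 in CT22 darkness, its lowest arrays, and 10.15 and 10.31 after light. Averaged over the 3 times, the light effect was 0.30 for the ligand TGFB3 (adjusted p = 0.0142), kept in 19 of 23 alternatives. That for SMAD2 was -0.17 (adjusted p = 0.0342), kept in 10 of 23. Over all probe sets 3% were called for the averaged effect. In darkness from CT6 to CT14 SMAD2 and SERPINE2 rose by 0.49 (adjusted p = 0.00179) and 0.54 (adjusted p = 0.00711). SMAD6 differed by -0.48 (adjusted p = 0.0163), and 3.46% of all probe sets were called. CCN2 differed by -0.66 from CT6 to CT22 in darkness (adjusted p = 0.0133), where 1.11% were called. Of these dark calls, that of SMAD6 was lost when any single CT6 or CT14 dark array was left out. The SERPINE2 call was lost without CT6 dark replicate 1, and the SMAD2 call in the values as deposited. The CCN2 call failed in 6 of 24 alternatives, including the removal of CT6 dark replicate 2 or either CT22 dark array.

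**Figure D5:**
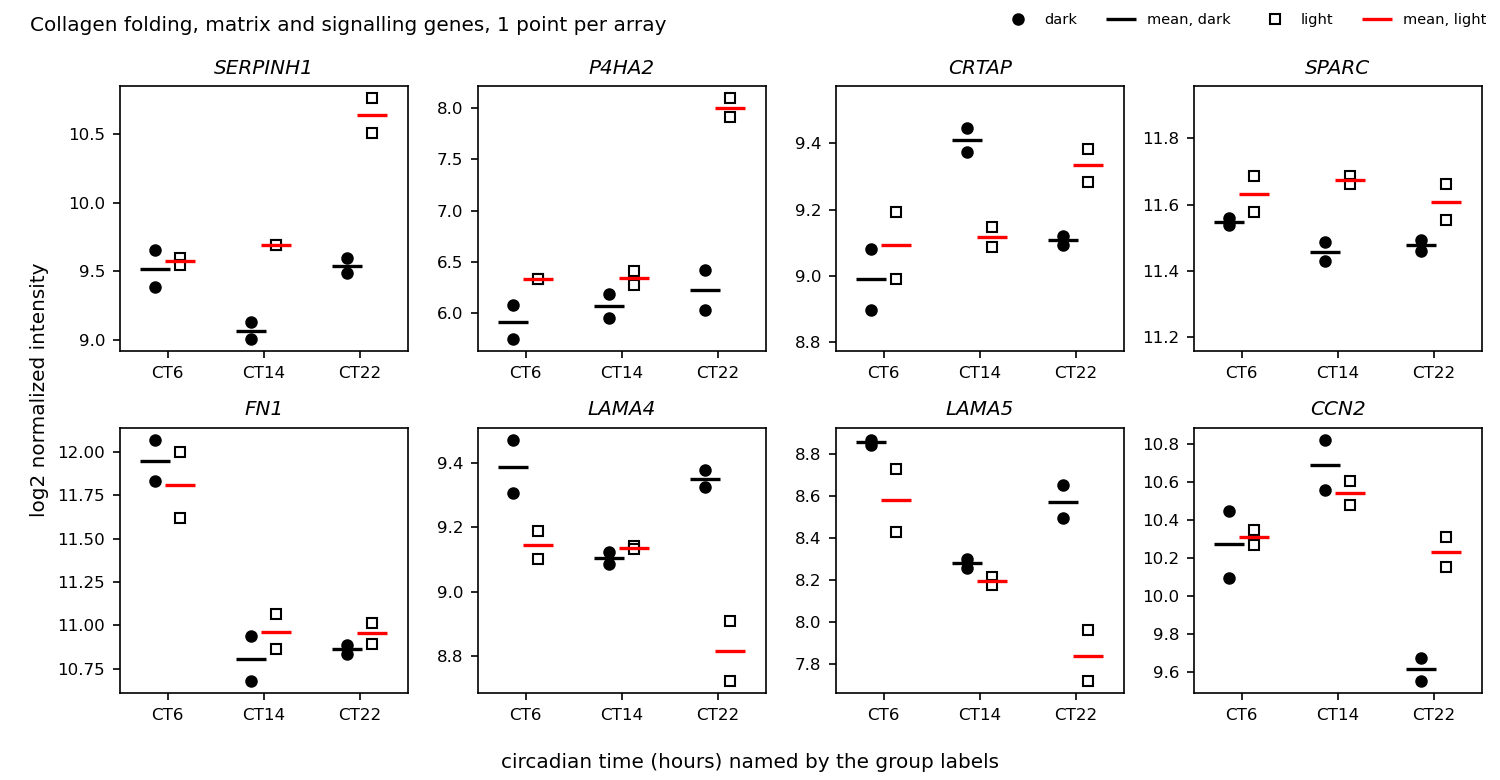
Log2 normalized intensity (y axis, own range per panel) by circadian time in hours (x axis) for 8 genes of collagen folding, matrix and TGF beta signalling; circles are dark arrays, open squares light arrays, bars means of 2 arrays. SERPINH1 (10.51 and 10.76) and P4HA2 (7.91 and 8.10) stand highest in the CT22 light arrays, and FN1 is higher in all CT6 arrays than in any later one.

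Markers of the cell types a gland pool can hold were read beside these results. The summed linear intensity of the 16 fibroblast and meningeal markers was 23116 and 22888 units in CT6 darkness, 24797 and 24261 in CT14 darkness and 25591 and 24777 in CT14 light, and the mean log2 level of the same markers was 7.87 and 7.94 in CT6 darkness and 8.05 and 7.93 in CT14 darkness. In CT6 light the sum was 24521.6 and 23740.5 units, and the mean log2 level was 7.98 and 7.87. The sum was 19641 and 21502 in CT22 darkness against 23004 and 23622 in CT22 light. The mean log2 level was 8.06 and 7.90 in CT14 light, 7.72 and 7.85 in CT22 darkness, and 7.98 and 8.00 in CT22 light. A linear sum is weighted to the brightest members, here MGP (12.67), PTGDS (12.66), VIM (12.12) and DCN (12.04), and does not measure all 16 alike. Of the 16 markers PTGDS rose at CT22 by 0.54 (adjusted p = 0.000582) and PDGFRA fell in darkness from CT6 to CT14 by 0.62 (adjusted p = 0.0145). Over all probe sets 3.64% were called for light at CT22 and 3.46% from CT6 to CT14 in darkness. The 7 tested mural cell markers, of pericytes and smooth muscle, summed to 2097 and 2048 units in CT6 darkness, 1635 and 1739 in CT14 darkness and 1857 and 1680 in CT14 light, with ACTA2, DES and TBX2 below the filter; KCNJ8 and ABCC9 fell from CT6 to CT14 by 0.71 and 0.79 (adjusted p = 0.0213 and 0.0116), and TAGLN rose after light at CT22 by 0.74 (adjusted p = 0.0326). The mural sum was 2082 and 2075 units in CT6 light, 1781 and 1780 in CT22 darkness, and 1549 and 1707 in CT22 light. The part of fibroblast and mural cell content in the collagen values was not tested.

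Some of the other marker lists held genes called for light, and some held none. For light, none of the cartilage, bone, skeletal muscle or leukocyte markers was called at any time. Of 14 tested pinealocyte markers RBP3 rose at CT14, and AANAT, DDC, ISL1 and PDC fell at CT22. Over all probe sets 1.67% were called for light at CT14, 1.14% higher and 0.529% lower. At CT22 3.64% were called, 1.73% higher and 1.92% lower. CLDN5 of 13 tested endothelial markers, FOLR1 and KL of 9 of choroid plexus and ependyma, and CA2 of 6 of erythrocytes rose at CT22. Among 9 tested glial markers OLIG2 fell at CT14 and rose at CT22, where GFAP and MBP fell. Leukocyte markers summed to 3559 units in CT14 dark replicate 1 and 5344 in replicate 2, and their part in the collagen values was not tested.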

How the data were processed

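Gland RNA was hybridised to Affymetrix chicken arrays with the one-cycle biotin protocol, per the labels' protocols. The authors deposited 1 intensity per probe set and array; which summary software and background step they used is not given in the labels. Medians of the deposited intensity spanned 0.53 on the log2 scale, over the 0.2 allowed, so the 12 arrays were quantile normalized over all 38535 probe sets. The 96 control probe sets were left out, values under 1 were set to 1, and 23063 of 38439 probe sets were kept for testing, those averaging over the 40th percentile of brightness (log2 3.73). The file's annotation gave 27168 probe sets a single gene symbol, 177 several and 11094 none.

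The 6 group means were fitted in R 4.3.3 with limma 3.58.1, a variance trend and empirical Bayes moderation (6 residual and 7.28 prior degrees of freedom), and intervals at 95%. Simulated data with known changes were used to check the fit. With 2 arrays per group, the number of arrays limits the precision, and p-values measure the spread between pools of glands. Arrays were grouped by their labels. Light was compared with darkness at each time, averaged and between times, and dark groups with each other. Alternatives covered scaling, filter, pseudocount of 16, variance model, array weights, probe set choice, replicate block, actin ratio and leaving out each array.

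Named genes are all collagen genes found by the rule, with array values for COL1A1, COL1A2, COL3A1, COL4A1, COL4A2, COL6A1, COL6A3, COL18A1 and every collagen gene past a test, and, of 26 lists, genes past the threshold for light at a time, at most 8 per list and time. COL5A3, COL11A2 and COL6A5 had no matched probe set. The members and lists were chosen with earlier results of these data known. RefSeq GRCg7b was used only for which genes neighbour each other. No sequence was used here.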

Additional observations from a re-analysis of the deposited data

Results flagged for a closer look

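Of the collagen genes, 3 had a light effect that differed between times by a test of the difference itself, made with limma and adjusted over all probe sets. The light effect on COL1A1 was 1.08 ± 0.14 (log2) higher at CT14 than at CT6 (adjusted p = 0.00896; 22 of 23 alternatives kept the call). That on COL1A2 was 0.62 ± 0.11 higher at CT22 than at CT6 (adjusted p = 0.0399), a call kept in 7 of 23 alternatives. That on COL8A1 was 1.16 ± 0.22 higher at CT22 than at CT14 (adjusted p = 0.0159), a call kept in 14 of 23.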

How the results depend on the processing

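Counts of collagen genes called for light at CT6 (1 as reported) were 0 with no filter, no variance trend, arrays centred on their median, deposited values, the mean of a gene's probe sets, the replicate block, the actin covariate and the groups concerned alone. At CT14 (1) they were 3 with the filter at the 60th percentile and 2 each with a pseudocount of 16 and robust variance. At CT22 (2) they were 0 as deposited and without the variance trend, and 1 each without the filter, with the replicate block and with the groups concerned alone. Averaged over times (1) they were 2 with median centring and 0 without the trend. Genes whose light effect differed between times (3) numbered 1 each as deposited, without the filter, with the mean of probe sets and with the actin covariate, and 0 without the trend. In darkness (7) they were 2 each without the trend and with the mean of probe sets, and among all groups (10) they were 4 without the filter, 2 without the trend and 6 with the mean of probe sets. Leaving out each of the 12 arrays gave 0 to 1 at CT6, 1 to 2 at CT14, 0 to 2 at CT22, 1 to 2 averaged, 1 to 4 for the difference between times, 4 to 8 in darkness and 5 to 9 among all groups; an arm left with 1 array was assumed to vary like the other groups. Over single genes, 985 of 1279 alternative values of 54 results kept direction and side of the threshold, 293 kept direction only, and 1 reversed, the fall of COL1A2 from CT6 to CT14 in darkness, which became 0.19 with the mean of its probe sets. Without quantile normalization the median difference of all probe sets was 0.12 (light, CT14), -0.11 (light, CT22), 0.28 (darkness, CT6 to CT22) and 0.37 (darkness, CT14 to CT22). The replicate numbers did not pair the arrays: across 15 pairs of groups their deviations correlated at -0.028 to 0.028, 0 of them over 0.1, and with the replicate block the counts at CT14, averaged, between times, in darkness and among all groups were 1, 1, 2, 7 and 10. A fit on the groups concerned alone was not run for the averaged effect, the difference between times or the 6 groups together. With 2 arrays per group, dim genes are the most limited, the median standard error being 0.132 over collagen genes and 0.203 over all tested probe sets.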
